A study of Mus musculus with 8 samples.

Results

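Immediate-early and other short-lived mRNAs were examined in fully grown mouse oocytes in which the deadenylase genes Cnot7 and Cnot8 had been deleted. The set held 10 of the 46078 genes in the count table, namely Fos, Fosb, Jun, Junb, Egr1, Egr2, Ier2, Myc, Atf3 and Ptgs2, each taken by its gene name. Of these, 9 had enough reads to be among the 19241 genes tested, and Myc did not. All 9 reached the minimum level in at least 2 control libraries, so none was tested only because it was high in KO oocytes.

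RNA-seq libraries were made from germinal vesicle (GV) stage oocytes, which are arrested in the prophase of the first meiotic division, and 4 libraries of CNOT7&8 KO oocytes were compared with 4 libraries of Zp3-Cre control oocytes. KO females carried floxed Cnot7 and floxed Cnot8 alleles together with Zp3-Cre, a transgene that the zona pellucida 3 promoter turns on in growing oocytes, whereas controls carried Zp3-Cre. Per the study's methods, females of a C57BL/6J background were 4 weeks old and were primed with PMSG, a gonadotropin that stimulates follicles, after which cumulus cells were stripped off with hyaluronidase and GV oocytes were kept in medium with dibutyryl-cAMP, which holds them at this stage. Each library pooled 100 oocytes, and the labels do not say whether the libraries of a group came from separate animals, so that p-values measure the spread between these libraries, which may be technical.

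Total counts lay between 8639444 and 44092144 per library. Levels are given below as TMM-normalized CPM, counts brought to a common library size that the trimmed mean of M-values adjusts. A floor of 3 counts was used as the limit of detection, which was 0.080 to 0.326 TMM-normalized CPM depending on the library and covers counting error only. Control replicate 1, the most deeply sequenced library, stood apart from the other controls over all genes, with a chi-square per degree of freedom, a measure that grows with depth, of 154 to 231 against each of them and of 8.48 to 19.4 among them. Over all genes its deviations from the group mean had a correlation of 0.37 with those of KO replicate 4, the highest of all control and KO pairs. With those of KO replicate 3 the correlation was -0.33, and a shared batch was not tested. The level of Cnot8 RNA in KO oocytes was 21.0% of that in controls and the level of Cnot7 RNA was 77.1%, with every KO library below every control library for both genes. Counts over a whole gene also take in exons outside a deleted part. None of 14 oocyte markers was a differentially expressed gene (DEG), but their median log2 fold change was -0.34. By the false discovery rate alone, 8 of them were lower and 2 higher in KO oocytes. In 7 every KO library was below every control library, and in 2 above. Among all genes tested, these shares were 21.4% and 27.0%. The summed level of the 14 markers was 23109 to 26871 CPM in control libraries and 18805 to 21715 CPM in KO libraries.

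Immediate-early genes are switched on within minutes of a growth factor, hormone or stress signal, without new protein synthesis. Most encode transcription factors, and their mRNAs are degraded quickly, often through AU-rich elements in the 3′UTR that recruit proteins such as tristetraprolin, which in turn bring in the CCR4-NOT deadenylase. CNOT7 and CNOT8 are catalytic subunits of this complex and shorten poly(A) tails. In the ovary, several members, among them Ptgs2, are known from granulosa and cumulus cells, where the luteinizing hormone surge induces them.

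The core of an AU-rich element is the pentamer ATTTA, and pairs of pentamers that share an A, or the heptamer TATTTAT, mark its stronger forms. In the longest annotated 3′UTR of each gene (GENCODE vM21, genome build GRCm38), at least 1 pentamer was found for 9 of the 10 members and at least 1 heptamer for 5 of 10. Among the 15113 coding genes tested, 69.8% held a pentamer, 29.6% a heptamer and 6.37% a pair of pentamers that share an A. A 30-base stretch with the most pentamers is shown for the 4 members that held a pentamer and rose in KO oocytes. It is also shown for Fos, the other member with a pair of pentamers that share an A. Where stretches tied, that with its pentamers nearest the middle was taken, and then the first. The capitals mark the pentamers, and the sequences run 5′ to 3′ on the strand of the mRNA.
Ptgs2: atATTTATTTATTTAtgtgaagaATTTAat
Fos: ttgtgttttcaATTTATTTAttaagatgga
Jun: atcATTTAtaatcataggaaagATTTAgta
Fosb: cccacccccagctATTTAtccctttcctgg
Egr2: tcagtgtatatccATTTAgattttgtgtat

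The stretch of Ptgs2 lay at chr1:150105796-150105825 on the plus strand, at bases 14 to 43 after the stop codon. The Fos stretch was at chr12:85477100-85477129 on the plus strand and that of Jun at chr4:95049207-95049236 on the minus strand. For Fosb it was chr7:19303326-19303355 on the minus strand, and for Egr2 chr10:67541644-67541673 on the plus strand. All 5 stretches were exonic and within the longest annotated 3′UTR. The shortest annotated 3′UTR of Fosb, of 207 bases, held no pentamer.

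The 3′UTR of Ptgs2 held the most of these elements, with 14 pentamers and 6 heptamers over 2445 bases. Among genes with a 3′UTR of similar length, within a factor of 5/4, 1.56% held as many pentamers and 0.534% as many heptamers. Fos followed with 4 pentamers and 2 heptamers in 815 bases, a number of heptamers that 3.79% of genes of similar length reached. Jun held 4 pentamers and 1 heptamer in 1233 bases, Atf3 3 and 1 in 1186 bases, and Fosb 1 and 1 in 2302 bases. Egr2 had 3 pentamers in 1200 bases, and Junb, Egr1 and Myc had 2 each, without a heptamer. Ier2 had no pentamer in its 755 bases, while 65.6% of genes with a 3′UTR of similar length held at least 1. A match gives only the letters in these windows and does not show binding by any protein.

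**Figure D1:**
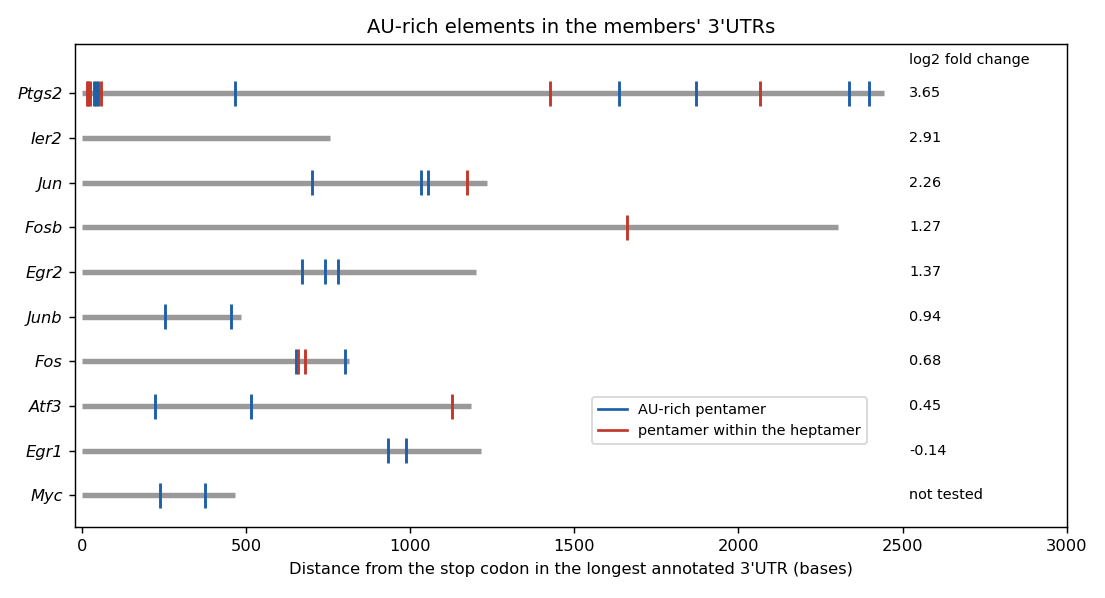
Positions of AU-rich pentamers in the longest annotated 3′UTR of each member, in bases after the stop codon. Grey bars show the 3′UTR, blue ticks pentamers, red ticks pentamers inside a heptamer, and the numbers at the right the log2 fold change of the KO against the control. Ptgs2 holds 14 pentamers, 7 of them starting within the first 57 bases of its 3′UTR, and Ier2, with a log2 fold change of 2.91, holds none.

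Of the 9 members tested, 5 rose in KO oocytes (Ptgs2, Ier2, Jun, Fosb and Egr2), none fell, and 4 were not DEGs (Junb, Fos, Atf3 and Egr1), where a DEG had to pass a false discovery rate of 0.05 and to differ 2-fold or more. Over all genes tested, 23.8% were higher and 6.56% were lower by the same rule. The median log2 fold change of the members was 1.27, against 0.118 over all genes. Because genes of low level rose more often, the members were also set beside genes of similar mean level. Of the 7 members with a mean of 1 to under 10 CPM, 3 rose, where 35.7% of the 5032 genes in this interval did, so that the share of these members was near that of their neighbours. Egr2 lay under 1 CPM, where 35.5% of genes rose, and Ptgs2 lay between 10 and 100 CPM, where 12.7% did. These means were taken over both groups, and Ptgs2 reached its interval through its KO values, with a control mean of 2.94 CPM.

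In 3 of the 9 members, Ptgs2, Ier2 and Jun, the libraries of the groups did not overlap, each with KO higher, and in none was KO lower throughout. Among all genes tested, 27.0% had KO libraries all above control libraries and 21.4% all below, and in the interval of 1 to under 10 CPM the share was 40.6%.

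**Figure D2:**
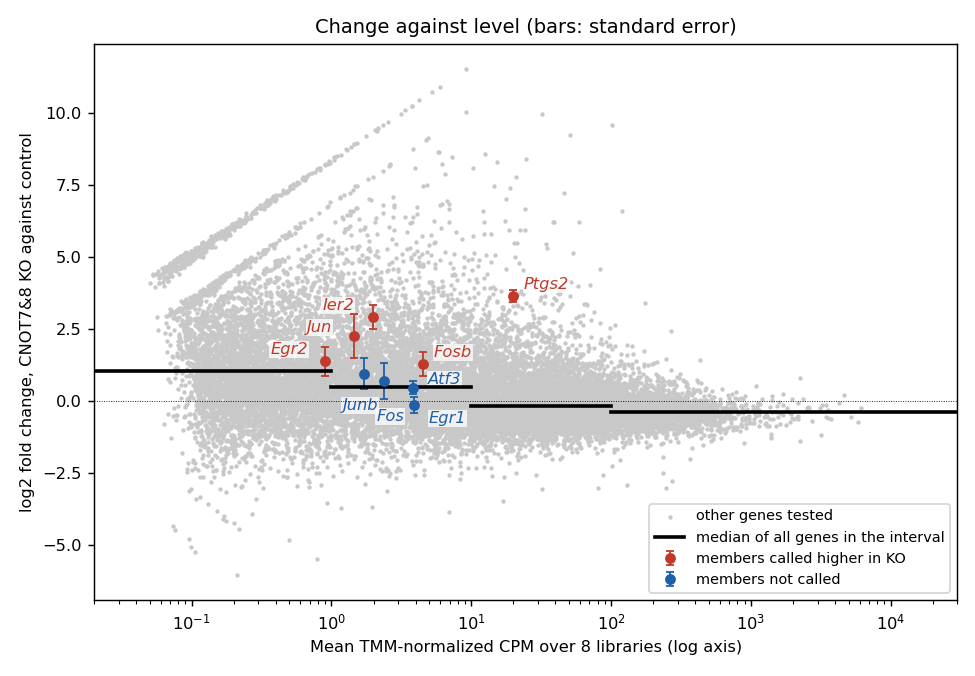
The log2 fold change of the KO against the control (y axis) plotted against the mean TMM-normalized CPM over 8 libraries (x axis, log scale). Grey points are other genes tested, red points members that rose, blue points members that were not DEGs, error bars the standard error, and black lines the median of all genes in each interval of level. Ptgs2 lies far above the median of its interval, where its high KO values place it. The other members lie within the spread of genes of like mean level.

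Ptgs2 encodes prostaglandin-endoperoxide synthase 2 (COX-2), the inducible enzyme that makes prostaglandin H2 from arachidonic acid. The gene (ENSMUSG00000032487) is located at chr1:150100031-150108227 on the plus strand. In control replicates 1 to 4 its level was 3.10, 1.78, 3.54 and 3.35 CPM, from 116, 36, 52 and 46 counts. In KO replicates 1 to 4 it was 37.3, 38.7, 28.9 and 41.8 CPM, from 344, 704, 468 and 1227 counts. Thus the lowest KO library was well above the highest control library, and the KO libraries differed little among themselves. The mean was 2.94 ± 0.797 CPM in controls and 36.7 ± 5.53 CPM in KO (SD, n = 4 each), a 12.5-fold rise (log2 fold change 3.65, SE 0.22, 95% interval 3.17 to 4.13, adjusted p = 1.804e-07 by edgeR's quasi-likelihood test). An exact permutation test over the 70 assignments of the libraries, two-sided, gave p = 0.0286, the smallest it can give. The log2 fold change of Ptgs2 was above that of 94.0% of all genes tested and of 98.9% of the 6314 genes between 10 and 100 CPM. Ptgs2 was placed in this interval by its mean over all libraries, which its KO values raise. Its control mean lay between 1 and 10 CPM. Genes whose mean over all libraries lay in that range had a 95th percentile of the log2 fold change of 4.01. That interval was not set by control level, and Ptgs2 was not ranked among genes of like control level.

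Ier2 encodes a small nuclear protein that is induced with the FOS and JUN genes. The gene (ENSMUSG00000053560, chr8:84661331-84662852, minus strand) had 0.374, 0.740, 0.544 and 0.146 CPM in control replicates 1 to 4 and 3.58, 2.97, 5.18 and 2.28 CPM in KO replicates 1 to 4. All KO libraries were above all control libraries, although the control values rested on only 2 to 15 counts. The mean was 0.451 ± 0.253 CPM in controls and 3.50 ± 1.24 CPM in KO (SD, n = 4 each), and the fitted rise was 7.52-fold (log2 fold change 2.91, SE 0.41, adjusted p = 8.782e-05 by edgeR's quasi-likelihood test, exact permutation p = 0.0286). Of the genes between 1 and 10 CPM, 89.8% had a lower log2 fold change.

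FOS and JUN proteins pair through leucine zippers to form the transcription factor AP-1, and 4 members encode them. Jun (ENSMUSG00000052684, chr4:95049034-95052222, minus strand) had 1.26, 0, 0.408 and 0 CPM in control replicates 1 to 4, from 47, 0, 6 and 0 counts. In KO replicates it had 4.13, 1.70, 2.53 and 1.53 CPM, from 38, 31, 41 and 45 counts. All KO libraries were above all control libraries, but KO replicate 4 was only slightly above control replicate 1, and the other control libraries were near or at 0. The log2 fold change was 2.26 (SE 0.77, adjusted p = 0.02419 by edgeR's quasi-likelihood test, exact permutation p = 0.0286), and it was 4.17 without control replicate 1 (adjusted p = 0.0008133). Without that library 24.0% of all genes tested rose. With DESeq2, by which 22.5% of genes rose, the adjusted p of Jun was 0.08752, and it was not a DEG. Junos, an antisense RNA gene that shares exon sequence with Jun, had 35, 12, 7 and 9 counts in control replicates and 9, 32, 9 and 34 counts in KO replicates. The counting tool and its strand setting were not given in the sources used here, and how reads of this pair were divided was not tested.

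Fosb (ENSMUSG00000003545, chr7:19302696-19310051, minus strand) lay within a narrow range in controls, at 2.51, 2.52, 2.79 and 2.55 CPM, from 94, 51, 41 and 35 counts. In KO replicates 1 to 4 it was 11.3, 7.36, 5.24 and 1.87 CPM. The first 3 KO libraries were above all controls and KO replicate 4 was below them, so that the groups overlapped. It was a DEG with a log2 fold change of 1.27 (SE 0.41, 95% interval 0.38 to 2.17, adjusted p = 0.0192 by edgeR's quasi-likelihood test), while the exact permutation test gave p = 0.143. Without KO replicate 1 the log2 fold change was 0.91, and Fosb was no longer a DEG.

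Fos (ENSMUSG00000021250, chr12:85473890-85477273, plus strand) was not a DEG. Its level was 4.70, 0.592, 0.952 and 0.510 CPM in control replicates 1 to 4 and 4.45, 2.14, 3.95 and 1.57 CPM in KO replicates 1 to 4. Control replicate 1 was above every KO library, and the other 3 controls were below every KO library. Its change on the log2 scale was 0.68 (SE 0.62, 95% interval -0.66 to 2.02, adjusted p = 0.3665 by edgeR's quasi-likelihood test, exact permutation p = 0.257). When control replicate 1, the library that stood apart, was left out, it was 2.10 (adjusted p = 0.001575) and Fos was a DEG.

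Junb (ENSMUSG00000052837, chr8:84974484-84978718, minus strand) had 0.641, 0.789, 1.84 and 1.38 CPM in control replicates and 3.69, 1.32, 3.33 and 0.647 CPM in KO replicates. KO replicates 1 and 3 were above all controls, and KO replicates 2 and 4 were within their range. Its log2 fold change, 0.94 (SE 0.53, 95% interval -0.22 to 2.10), did not pass edgeR's quasi-likelihood test (adjusted p = 0.1523). Prdx2, a gene on the opposite strand that shares exon sequence with Junb, had 4095 to 21131 counts per library, and whether its reads entered the counts of Junb was not tested.

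EGR proteins are zinc finger transcription factors of growth factor and hormone signaling, and 1 of the 2 members was a DEG. Egr2 (ENSMUSG00000037868, chr10:67535475-67542188, plus strand) had 0.535, 0.345, 0.748 and 0.291 CPM in control replicates and 1.74, 1.65, 1.42 and 0.409 CPM in KO replicates. KO replicates 1 to 3 were above all controls, and KO replicate 4 was within the control range. Its rise on the log2 scale was 1.37 (SE 0.49, adjusted p = 0.03127 by edgeR's quasi-likelihood test, exact permutation p = 0.0857), and Egr2 was no longer a DEG when any 1 of KO replicates 1, 2 and 3 or control replicates 2 and 4 was left out.

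Egr1 (ENSMUSG00000038418) had 5.45, 3.85, 2.45 and 4.59 CPM in control replicates and 2.93, 4.67, 4.50 and 2.86 CPM in KO replicates. The groups overlapped over most of their range. Its log2 fold change was -0.14 (SE 0.27, 95% interval -0.73 to 0.46, adjusted p = 0.6931 by edgeR's quasi-likelihood test), an interval that excludes a 2-fold change in either direction. With library size as the only scaling the value was 0.17, so that no direction can be given. The log2 fold change of Egr1, with its sign, was above that of 30.5% of genes between 1 and 10 CPM.

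Atf3, a stress-induced transcription factor of the ATF/CREB family, was the member with the highest level per kb in controls. Its gene (ENSMUSG00000026628) spans chr1:191170296-191218039 on the minus strand. The level was 3.21, 3.65, 3.27 and 2.69 CPM in control replicates and 6.19, 4.34, 3.95 and 3.37 CPM in KO replicates. KO replicate 4 was within the control range, and the other KO libraries were above it. The log2 fold change of 0.45 (SE 0.23, 95% interval -0.05 to 0.95) did not pass edgeR's quasi-likelihood test (adjusted p = 0.1135). With library size as the only scaling it was 0.73 (adjusted p = 0.01623), and with TMM on genes of at least 10 CPM 0.70 (adjusted p = 0.02258), both under a 2-fold difference. The exact permutation test gave p = 0.0571, and p = 0.0286 when counts were scaled by library size only.

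Myc, a transcription factor that drives growth and ribosome synthesis, was near the limit of detection in both groups. Its gene (ENSMUSG00000022346, chr15:61985391-61990374, plus strand) had 2, 2, 0 and 2 counts in control replicates and 0, 1, 0 and 7 counts in KO replicates. All libraries but KO replicate 4 were at or under 3 counts, and no fold change is given. Any difference was not detectable at this depth.

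**Figure D3:**
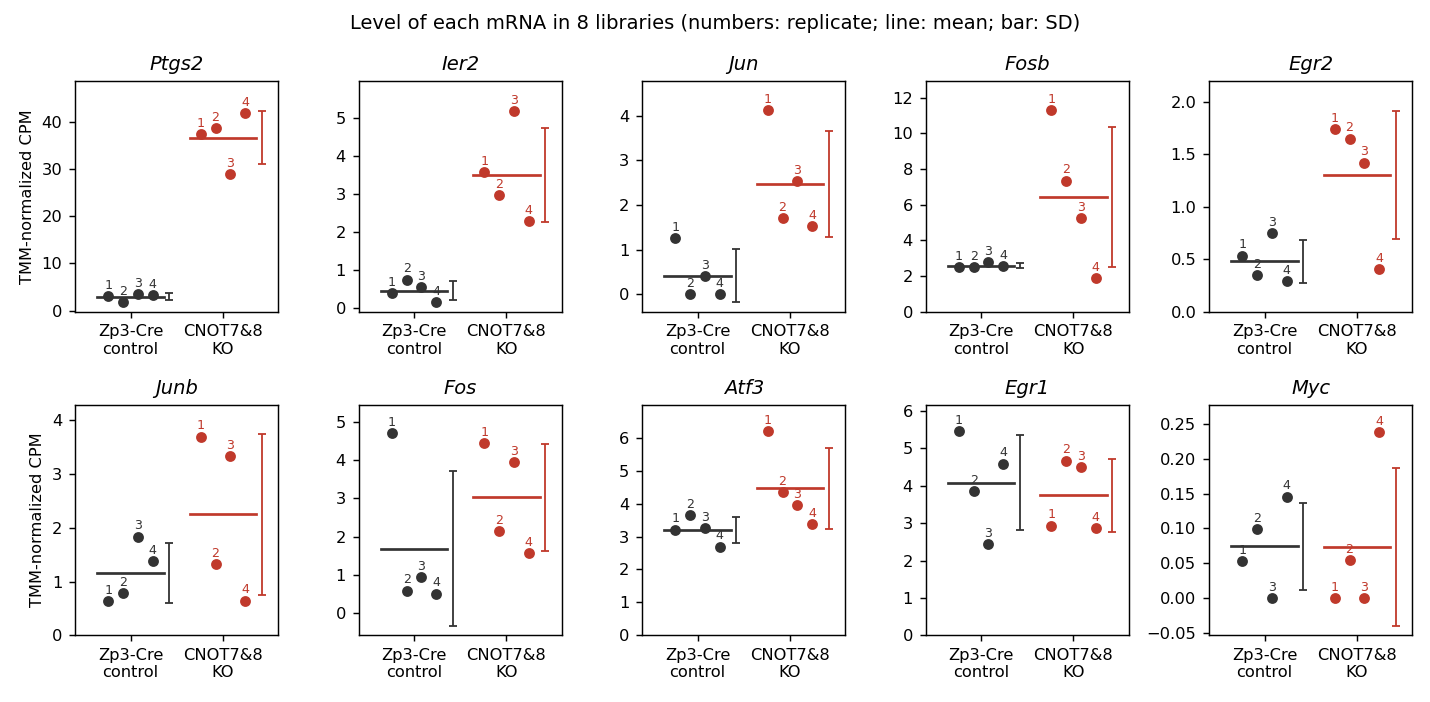
TMM-normalized CPM of each member (y axes) in the 4 control libraries (black) and the 4 CNOT7&8 KO libraries (red). Points carry the replicate number, horizontal lines are means and bars the SD. KO replicate 4 has the highest Ptgs2 level, 41.8 CPM, and the lowest KO level of Fosb, 1.87 CPM, and control replicate 1 holds the high Fos value of 4.70 CPM.

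Most members had their lowest KO value in the same library. KO replicate 4 had the lowest KO value for 8 of the 10 members and the highest for 2, Ptgs2 and Myc, and KO replicate 1 had the highest value for 6. The summed level of the 10 members was 14.4 to 21.8 CPM in control libraries and 56.6 to 75.3 CPM in KO libraries. Without Ptgs2 the sum was 12.3 to 18.7 CPM in controls and 14.8 to 38.0 CPM in KO, so that the groups no longer separated and KO replicate 4 lay at the level of the controls.

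Since immediate-early genes are also expressed in granulosa and cumulus cells, markers of these cells were examined in the same libraries. Of 20 markers, 17 were tested, 8 rose and none fell, with a median log2 fold change of 1.11. Over all genes tested 23.8% rose, with 35.7% of those between 1 and 10 CPM and 12.7% of those between 10 and 100 CPM. None of the 8 had passed the filter on low values only with the help of KO libraries, but Tnfaip6 and Ptx3 had, which favors a rise. These 2 and Amh, Amhr2, Cyp11a1, Cyp19a1, Hsd17b1, Has2 and Wt1 were not DEGs. Among these, Amh (log2 fold change -1.09), Has2 (-0.25) and Cyp19a1 lay below 0 and the rest above. Areg and Ereg were not tested. The summed level of the 20 markers was 137 to 195 CPM in controls and 237 to 334 CPM in KO. Fshr, the follicle-stimulating hormone receptor (1.56 on the log2 scale), and Kitl, the ligand that granulosa cells present to the oocyte (1.43), were among those that rose. Cyp19a1, the aromatase of estrogen synthesis, went the other way, from 58.4 ± 8.01 to 31.3 ± 6.02 CPM (log2 fold change -0.90, adjusted p = 0.000507 by edgeR's quasi-likelihood test), short of a 2-fold difference but with every KO library below every control, and Foxl2, a defining transcription factor of granulosa cells, had at most 1 count in any library. In such pooled samples a change in the number of attached cells and a change in RNA per cell cannot be told apart.

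The 8 granulosa markers that rose did not share 1 pattern over the KO libraries. In KO replicate 4, 4 of them were above all controls, 3 were within the control range and 1 was below it. Kitl had 50.9, 52.2, 30.3 and 40.1 CPM in KO replicates 1 to 4 and 11.9 to 20.7 CPM in controls, and Nr5a2, a nuclear receptor, had 126, 114, 117 and 132 CPM against 48.3 to 69.3 CPM. Inha, an inhibin subunit, had 38.4, 34.1, 26.5 and 4.77 CPM in KO replicates and 4.44 to 10 CPM in controls. Gja1, the gap junction protein connexin 43, had 44.2, 46.8, 28.1 and 10.8 CPM against 3.85 to 12.9 CPM, and Fst, follistatin, was also within the control range in KO replicate 4 only. Nr5a2, Inha, Gja1 and Fst were chosen after their values were seen.

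Among the members, Egr2 and Atf3 were likewise within the control range in KO replicate 4 only, and Fosb was below it. The part of these markers in the values of the members was not tested. Ptgs2 was at its highest in KO replicate 4, and Ier2 and Jun were above all controls there, at 2.28 and 1.53 CPM.

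Of 12 blood and stromal markers, 8 were tested and 3 rose, among them Cd68, a macrophage protein (log2 fold change 1.46), while the 4 haemoglobin genes had 0 counts in every library. Of the 8 tested, 4 passed the filter on low values only with the help of KO libraries, which favors a rise, and 1 of these rose (Ptprc). Of the other 4, 2 rose, where 23.8% of all genes tested did. The summed level of the 12 markers was 89.4 to 111 CPM in controls and 81.1 to 96.0 CPM in KO, most of it from Pecam1, an endothelial adhesion molecule that was not a DEG (96.2 ± 8.91 and 82.2 ± 6.26 CPM). Without Pecam1 the sum was 2.54 to 3.57 CPM in controls and 5.82 to 8.02 CPM in KO. The part of the blood and stromal markers in the values of the members was not tested.

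Compared per kb of exon, the levels of the members were in a different order in the groups. In controls Atf3 led with 1.49 CPM per kb, followed by Egr1 with 0.911, Fos with 0.718, Ptgs2 with 0.642, Junb with 0.505, Fosb with 0.415, Ier2 with 0.296, Egr2 with 0.141, Jun with 0.130 and Myc with 0.0274 CPM per kb. Of the 9 pairs of neighbours in this order, only Atf3 and Egr1 did not overlap between libraries. In KO oocytes Ptgs2 led with 8.00 CPM per kb, Ier2 followed with 2.30 and Atf3 with 2.07, and Myc was last with 0.0270 CPM per kb. There 2 of the 9 neighbouring pairs did not overlap, Ptgs2 with Ier2 and Egr2 with Myc. Among the genes ranked by level per kb, Ptgs2 lay at percentile 32.9 in controls and 68.3 in KO, and Ier2 at 25.4 and 44.5.

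Genes related to the members by function were examined in lists. A gene that reached the filter level in fewer than 2 control libraries was tested only with the help of KO libraries, which favors a rise, so these genes, called below the filter in controls, are counted beside the lists they bear on. A list of 43 other immediate-early genes was the largest, with 41 in the table and 37 tested. Of these 16 rose and none fell, with a median log2 fold change of 1.0, and 2 of the 16 were among the 5 genes of the list that were below the filter in controls. Of the other 32 genes 14 rose. Over all genes tested 23.8% rose and 6.56% fell, shares that also stand beside the lists that follow. By level, 35.5% of genes under 1 CPM rose, 35.7% of those between 1 and 10 CPM and 12.7% of those between 10 and 100 CPM. Dusp5 and Dusp4, phosphatases that switch off ERK kinases, rose the most by the naming rule, from 0.199 ± 0.168 to 10.6 ± 4.35 CPM (log2 fold change 5.49) and from 0.462 ± 0.193 to 3.03 ± 1.20 CPM (2.77). Nr4a1, an orphan nuclear receptor (log2 fold change 3.40), also rose, although its control and KO libraries overlapped. So did Mcl1, a survival protein of the BCL2 family (2.59). Dusp1, a phosphatase of stress kinases (-0.01), and Btg2, an antiproliferative factor (-0.61), were not DEGs, and these 4 genes were chosen after their values were seen. Egr3, Egr4 and Npas4 had 0 counts in every library, which allows up to 0.326 CPM in the shallowest.

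Relatives of the AP-1 members, partners of MYC and their target genes were taken next. Of 12 AP-1 relatives tested, 1 rose (Fosl2, log2 fold change 1.07) and 1 fell, namely Batf3, a partner of JUN proteins, from 4.43 ± 1.59 to 1.17 ± 0.395 CPM (-1.94), with a list median of 0.23, and 2 genes that were not DEGs were below the filter in controls. Of 12 genes of the MYC network 3 rose and none fell (median 0.67), among them Mxi1, a repressor that competes with MYC for its partner MAX (log2 fold change 1.51). Of 12 MYC target genes 1 rose, Cad, which starts pyrimidine synthesis (1.85), and none fell (median -0.17). Of 8 AP-1 and EGR1 target genes tested 3 rose and none fell (median 0.90), 1 of the 3 being below the filter in controls, with Ccnd1, cyclin D1, going from a mean of 1.65 ± 0.289 to 13.4 ± 2.33 CPM (3.02).

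Genes of prostaglandin synthesis and reception changed in both directions. Of 12 tested, 4 rose and 1 fell, with a median of 0.77. Ptger4, the prostaglandin E2 receptor EP4, rose from 15.3 ± 0.331 to 42.4 ± 7.78 CPM (log2 fold change 1.48, adjusted p = 7.074e-06 by edgeR's quasi-likelihood test). Ptges, which converts the product of COX-2 to prostaglandin E2, rose by 1.29 on the log2 scale, Hpgd, which inactivates prostaglandins, by 1.39, and Ptgds, prostaglandin D2 synthase, by 1.55. Ptgis, prostacyclin synthase, fell from 46.2 ± 8.32 to 23.0 ± 5.45 CPM (-1.01). Ptges and Hpgd are given beside those the naming rule chose after their values were seen.

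Of 24 cytokine and growth factor genes whose mRNAs are known to be unstable, 12 had at most 3 counts in every library, among them Tnf, Il1b and Csf2, which had none. Of the 10 tested, 4 (Il3, Il10, Lif and Ifnb1) were below the filter in controls, and 3 of these rose. Of the other 6, 2 rose, Ccl2 and Plaur, and none fell. Ccl2, a chemokine that attracts monocytes, rose from 3.18 ± 1.39 to 51.3 ± 5.49 CPM (log2 fold change 4.06, adjusted p = 2.497e-07 by edgeR's quasi-likelihood test). Il3, a hematopoietic cytokine, had at most 5 counts in any control library and rose to 4.02 ± 0.413 CPM.

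Regulators that act upstream of the members showed no common direction. Of 23 kinases, transcription factors and cofactors, 2 rose, 3 fell and 18 were not DEGs, with a median of -0.21. Crem and Creb1, cAMP-responsive transcription factors, rose by 1.62 and 1.43 on the log2 scale. Nab2, a repressor that binds EGR proteins, fell from 31.2 ± 5.48 to 13.5 ± 2.23 CPM (-1.22), Elk3, an ETS factor, had a log2 fold change of -1.19, and Mapk3, the kinase ERK1, one of -1.04. Of 8 AU-rich element binding proteins, Zfp36l2 (log2 fold change 1.54) and Zfp36l1 (2.94, below the filter in controls), relatives of tristetraprolin, rose, and tristetraprolin itself (Zfp36, 0.58) was not a DEG. None of 12 housekeeping genes was a DEG, with a median of -0.04. By the false discovery rate alone, 4 of them were higher and 5 lower, each by less than 2-fold. In 2 every KO library was above every control library, and in 5 every KO library was below.

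**Figure D4:**
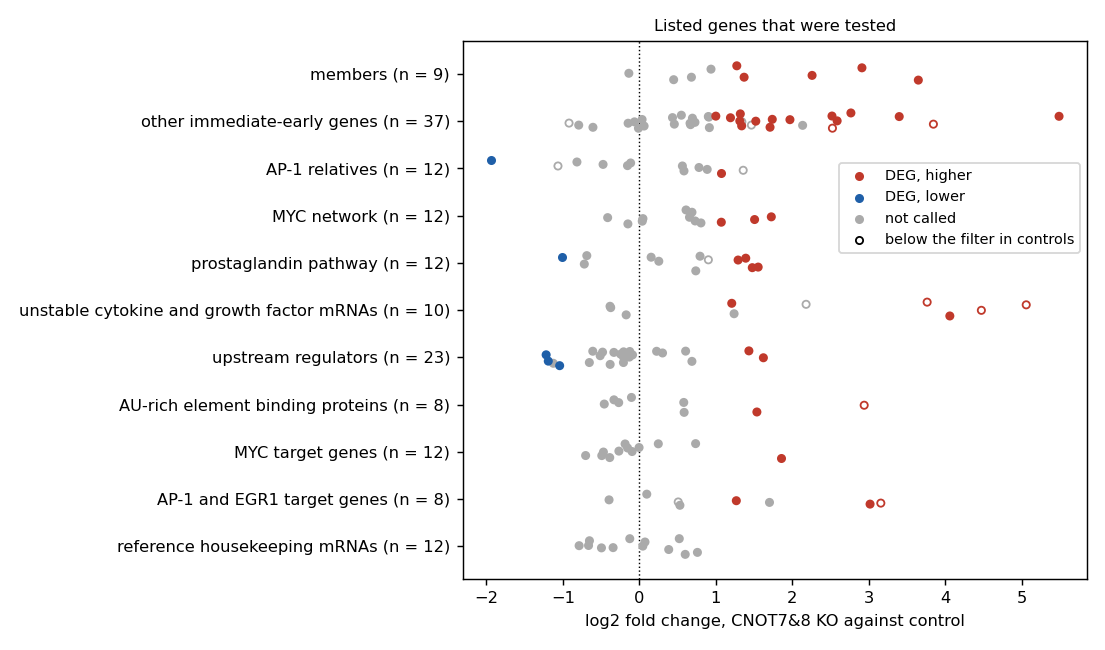
The log2 fold change (x axis) of every tested gene in each list, with the number tested. Red points are DEGs higher in KO, blue points DEGs lower in KO, grey points other genes, open points genes that were below the filter on low values in controls, and the dotted line marks no change. Of the 37 other immediate-early genes 16 are red and none is blue, and 4 of the 10 unstable cytokine mRNAs are open. Over all genes tested 23.8% were DEGs higher in KO and 6.56% DEGs lower in KO.

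Whether mRNAs with AU-rich elements differed from others was examined over the coding genes, within intervals of level. Between 1 and 10 CPM, the median log2 fold change was 0.43 for 2859 genes without a heptamer, 0.79 for 665 with 1 and 0.92 for 362 with 2 or more. In these classes 34.4%, 43.0% and 46.1% of genes rose. The difference between the last and the first class was 0.49. A similar difference was taken from the ratio of each KO library to the control mean, with a small constant added to both. Its SD over the KO libraries was 0.032, which leaves out the spread between controls and is not the error of 0.49. Between 10 and 100 CPM the medians were -0.26, -0.04 and 0.01, and 11%, 15.6% and 17.3% of genes rose. The difference there was 0.28, and the SD over the KO libraries, taken in the same way, was 0.13.

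3′UTRs with heptamers were longer, with a median of 2655 bases in the class with 2 or more and 769 bases in the class without, between 1 and 10 CPM. When only 3′UTRs of 1000 to 2000 bases were taken, the difference between these classes was 0.58 in that interval, 0.077 between 10 and 100 CPM, 0.16 at 100 CPM or more and -0.29 under 1 CPM, where 55 genes had 2 or more heptamers. The class with 1 heptamer differed by 0.29 under 1 CPM (126 genes). Thus the difference for 2 or more heptamers was positive in 3 of the 4 intervals and negative in 1, and base composition was not tested. Ptgs2, with 6 heptamers and a log2 fold change of 3.65, and Ier2, with none and 2.91, lay far from the medians of their classes.

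**Figure D5:**
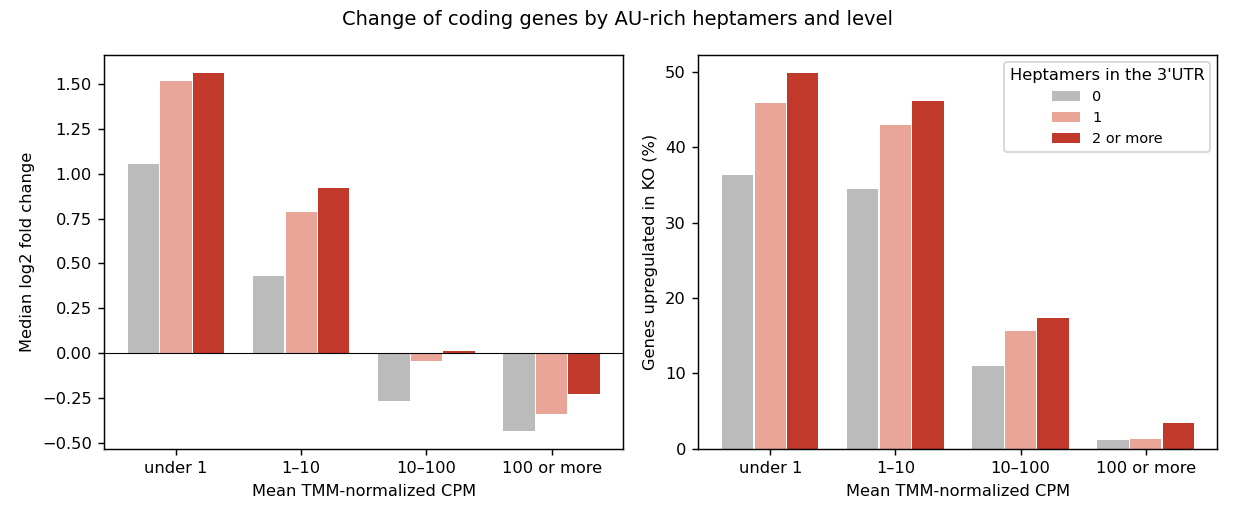
Median log2 fold change (left) and percentage of genes that rose (right) for coding genes with 0, 1 or 2 or more AU-rich heptamers in the longest 3′UTR, by interval of mean TMM-normalized CPM. In each interval the class with 2 or more heptamers has the higher median, as between 1 and 10 CPM with 0.92 against 0.43, without regard to 3′UTR length.

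Among the 13758 genes that averaged 1 CPM or more, those whose log2 CPM over the 8 libraries was most like that of Ptgs2 were Cdh8, a cadherin (Pearson's r = 0.9991), Fbxo15, an F-box protein (0.9988), Efcab1, an EF-hand protein (0.9983), Enc1, an actin-binding protein (0.998), and 4930509E16Rik (0.9971). All 5 were higher in every KO library, and these values mostly describe the difference between the groups.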

How the data were processed

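RNA of GV oocytes was measured in 8 libraries. The authors depleted ribosomal RNA, mapped paired-end reads to GRCm38 with STAR 2.6.1d (nf-core/rnaseq) and deposited the raw counts of each gene, without filtering or pooling. The submitters' processing notes also name edgeR 3.11. The counting tool, annotation and strand setting are not given in the sources used here, so counts of overlapping or near-identical genes are uncertain. Groups and replicate numbers came from the labels, and each column of the table was assigned by its genotype and number.

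Genes with at least 0.2 CPM in 2 libraries were tested in R 4.3.3 with edgeR 4.0.16 (TMM scaling, quasi-likelihood test, Benjamini-Hochberg adjustment), whereas the study's methods name edgeR's exact test, which was run as an alternative together with DESeq2 1.42.0, other scalings and filters, a replicate block and the omission of each library. DEGs had to pass an adjusted p of 0.05 and to differ 2-fold or more. Single values were compared by exact permutation tests over 70 assignments, two-sided. Tests were checked on simulated data. 3′UTRs came from GENCODE vM21, in which 98.2% of the genes were found, and those of at least 50 bases were searched on the mRNA strand for ATTTA and TATTTAT, which overlap. Figures were drawn in matplotlib 3.10.9 under Python 3.11.15, with pandas 2.3.3.

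The members, lists and tests were chosen with earlier results of these data known. From each list, up to 2 DEGs higher and 2 lower in KO with the largest log2 fold change were named if they averaged 1 CPM or more and the groups did not overlap, together with the 10 members, genes across a member and the 5 genes most like Ptgs2. Genes named beyond this rule were picked once their values were known. Total counts of 8639444 to 44092144 per library set the precision of low values. No sequence is shown for Egr1, and proteome, polysome and poly(A) tail experiments were not analysed here.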

Additional observations from a re-analysis of the deposited data

Results flagged for a closer look

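In 2 of 20 groups of 4 libraries (each member in each genotype), Dixon's criterion set 1 library apart from the rest, where about 1 would be expected by chance. For Fos, control replicate 1 was at 4.704 CPM and the other controls at 0.5098 to 0.9523 CPM, so that the gap took a share of 0.894 of the range. For Fosb, control replicate 3 was at 2.789 CPM and the other controls at 2.512 to 2.549 CPM (a share of 0.868), a difference that is small in size because the controls lay close together. Control replicate 1 also stood apart from the other controls over all genes (chi-square per degree of freedom 154 to 231 against them, 8.48 to 19.4 among them), and the part of this in the Fos value was not tested.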

How the results depend on the processing

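Of the members tested, Ptgs2 and Ier2 were DEGs in all 19 alternatives, Fosb in 17, Jun in 16, Egr2 in 13 of 18, Fos in 3, Junb in 1, and Egr1 and Atf3 in none. The log2 fold change ranged from 3.47 to 3.93 for Ptgs2 and from 2.68 to 3.25 for Ier2, with adjusted p of at most 3.641e-06 and 0.000456. Egr2 was not tested with the filter of at least 1 CPM in 4 libraries. Other alternatives left 4 to 6 members higher and none lower, and leaving out each library in turn 2 to 6 (main value 5), with 2 without KO replicate 1 and 3 without KO replicate 2. Fos was a DEG at 2.10 without control replicate 1 (adjusted p = 0.001575) and at 2.33 without control replicate 1 and KO replicate 4 together, a setting chosen after seeing the data. Junb was a DEG without KO replicate 4 (1.30, adjusted p = 0.03035). Jun was not a DEG with DESeq2 (2.58, adjusted p = 0.08752), without KO replicate 1 (2.01) or without control replicate 3 (2.20), and Fosb was not without KO replicate 1 (0.91) or KO replicate 2 (1.20). Egr1 changed sign to 0.17 with library size only, 0.13 with TMM on genes of at least 10 CPM and 0.18 without both libraries, and ranged from -0.31 to 0.047 when each library was left out. The causes were not tested.

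Over all genes, 4582 were higher and 1263 lower. The number higher was 2882 with at least 1 CPM in 4 libraries, where fewer genes are tested, and 4232 to 4603 when each library was left out. The number lower was 588 with library size only, 628 with TMM on genes of at least 10 CPM and 4631 by the false discovery rate alone, and 1032 to 1430 when each library was left out. Library size only moved the median of all genes by 0.287 on the log2 scale. By the false discovery rate alone, 2 other immediate-early genes were lower, and without each library in turn 14 to 19 were higher (main value 16). With the shortest annotated 3′UTR, 7 members held a pentamer (main value 9) and 4 a heptamer (main value 5). Of the coding genes tested, 51.9% and 18.9% did so with the shortest 3′UTR. The difference in median log2 fold change between genes with 2 or more heptamers and none was 0.62 between 1 and 10 CPM with the shortest 3′UTR in place of the longest, and 0.58 there, 0.077 between 10 and 100 CPM and -0.29 under 1 CPM with 3′UTRs of 1000 to 2000 bases, a limit chosen after seeing the data.

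Both groups use the same replicate numbers, but same-numbered libraries did not deviate together (correlations of their deviations -0.07, -0.04, 0.11 and -0.12). With the replicate number as a block, 6 members were higher and none lower, with Fos added (log2 fold change 1.23, adjusted p = 0.01838), and 4316 of all genes were higher and 1254 lower. Depth limits Myc, Jun, Ier2 and Egr2 most, since their control values rest on few counts.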
